A study of Mus musculus with 2 samples.

Results

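The peptide hormone enteroendocrine cells of ileal enteroids were described in 1 control and 1 *Taf4*IEC single-cell library. They were chosen by measured values: a cell had at least 2000 unique molecular identifiers (UMIs, the counted transcripts), the granule genes *Chga*, *Chgb*, *Cpe* and *Neurod1* together made up at least 10 of every 10000 UMIs, and fewer than 3 UMIs each of *Tph1* and *Neurog3* were present. This rule kept 148 of 4374 cells, 102 of 2563 in the control library and 46 of 1811 in the *Taf4*IEC library. The levels of the 6 genes in the rule and the depth of the cells are therefore given as description.

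Enteroendocrine cells are the hormone-secreting cells of the gut lining. They arise from crypt progenitors through a transient *Neurog3* stage, store peptide hormones in chromogranin-rich granules and release them when nutrients reach the lumen. Cells that make serotonin carry *Tph1* and are called enterochromaffin cells, whereas the peptide types are named by hormone: *Cck* (satiety and gallbladder contraction), *Gcg* (source of GLP-1), *Pyy*, *Nts*, *Gip*, *Ghrl* (ghrelin), *Sct* (secretin) and *Tac1* (substance P). Taf4 is a subunit of TFIID, the complex that brings RNA polymerase II to promoters, and the comparison addresses what its loss changes in these cells.

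Enteroids are crypt-derived epithelial cultures, here from ileal crypts of 4-month-old C57Bl6/129sv mice. The *Taf4*IEC culture carried *Taf4*lox/lox::VilCreERT2, in which the Villin promoter drives a tamoxifen-activated Cre throughout the epithelium and not in enteroendocrine cells alone, and was given 1 µM 4-hydroxytamoxifen for 3 days. The control culture is labelled wild type with ethanol, whereas the study's methods give it as *Taf4*lox/lox without Cre and with 4-hydroxytamoxifen. The agent of the control is therefore uncertain, and genotype, Cre and agent cannot be told apart. There was 1 library per condition, so no difference has a replicate check and none was tested. The 95% intervals below (exact Poisson for levels, exact binomial for shares, exact conditional binomial for ratios, Newcombe for differences of shares) cover counting error only and treat cells of 1 culture as independent, which they are not.

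The library totals were 39947009 and 24990128 UMIs in control and *Taf4*IEC, with medians of 16749 and 2254 UMIs per cell. Members had a median of 10313 UMIs in control (2129 to 29957) and 19179 in *Taf4*IEC (2453 to 35337), and together 1137890 and 806723 UMIs. Mitochondrial transcripts made up 6.56% and 5.95% of these and ribosomal protein transcripts 27.7% and 16.8%. The libraries shared 2 barcodes, none of them a member. *Taf4* itself had 9 UMIs in 9 control members and 17 in 13 *Taf4*IEC members (log2 ratio 1.41, 0.17 to 2.76), and its paralog *Taf4b* had 1 and 2. These are 3′ counts, and the position of the deleted part is not given in the sources used here, so they do not check the labels.

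The summed granule genes ran from 10.1 to 510 per 10000 in control members (median 43.1) and from 10.5 to 453 in *Taf4*IEC members (median 64.9). The members nearest the threshold had 10.1 and 10.5 in control and 10.5 and 12.1 in *Taf4*IEC, whereas the nearest cells outside had 9.92 and 9.72, and 8.87 and 8.11. Between the threshold and 15 per 10000 lay 9 control and 4 *Taf4*IEC members, and 13 and 7 cells outside the rule lay between 5 and 10.

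Some members had nearly the same counts and may not be separate profiles. In control, 13 barcodes fell into 3 groups of 7, 4 and 2 whose counts agreed close to sampling noise, with a mean chi-square per gene of 0.961 to 1.84 within a group against 1.93 or more for every other pair (median 8.31). In *Taf4*IEC, 8 barcodes fell into groups of 3, 2 and 3, with 0.957 to 1.55 within a group against 2.68 or more (median 11.7). Counting each group once leaves 92 and 41 profiles. The control group of 7 had 32 to 86 *Lyz1* and 4 to 26 *Olfm4* UMIs beside 9 to 23 of *Cck*, that is, transcripts typical of Paneth and stem cells. Hormone counts still differed within the other control groups. The pair had 0 and 8 *Cck* and 0 and 9 *Pyy* UMIs, and the group of 4 had 1 to 5 of *Cck*. All 3 *Taf4*IEC groups held *Cck*, at 53 to 77, 1288 to 1725 and 385 to 1159 UMIs, so the main values of *Cck*, *Gcg* and *Gip* are followed by those counted by profile.

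The label was checked against the 6 hormones that mark these cells. At least 5 UMIs of *Pyy*, *Nts*, *Gcg*, *Cck*, *Gip* or *Ghrl* were present in 59 of 102 control members and 34 of 46 *Taf4*IEC members. The remaining 43 and 12 members carried the granule genes without a marker hormone at that count, so for them the name rests on the rule alone. In cells of at least 2000 UMIs with no UMI of *Chga*, *Chgb* or *Neurod1* (1721 and 632 cells, median 19424 and 31247 UMIs), 5 *Cck* UMIs were reached in 0.116% and 0.158% and 5 *Gcg* UMIs in 2 of 1721 and 0 of 632 cells, the latter allowing up to 0.475%. Whether these UMIs came from free RNA, doublets or expression was not tested.

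Members made up 3.98% (3.26 to 4.81) of control cells and 2.54% (1.87 to 3.37) of *Taf4*IEC cells, a difference of −1.44 percentage points (−2.51 to −0.336). Among cells of at least 2000 UMIs, the only ones that could be members, the shares were 4.81% (102 of 2119) and 4.99% (46 of 921), a difference of 0.181 points (−1.47 to 2.01), so the difference over all cells was not seen among cells deep enough for the rule. Among cells past the granule threshold, members were 70.8% of 144 in control and 39.7% of 116 in *Taf4*IEC (−31.2 points, −42.7 to −18.7). The other granule cells were those with *Tph1* (22 and 27 cells) and those with *Neurog3* (20 and 43 cells). The *Neurog3* cells were 0.944% and 4.67% of cells of at least 2000 UMIs, and all granule cells together 6.80% and 12.6%. The limits of 3 *Tph1* and 3 *Neurog3* UMIs were fixed counts, not scaled to depth. Cells were deeper in *Taf4*IEC, with medians of 9715 and 18612 UMIs in *Neurog3* cells and 6733 and 11932 in *Tph1* cells. How far depth moved the split of granule cells into members, *Tph1* and *Neurog3* cells was not tested.

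Each member was assigned to the hormone with most UMIs among 11 peptide hormone genes, of which 8 had a row and could be dominant, provided that it had at least 5. *Cck* was dominant in 37 control members (36.3%, 27.0 to 46.4) and 24 *Taf4*IEC members (52.2%, 36.9 to 67.1), a difference of 15.9 points with an interval of −2.38 to 33.5. By profile it was dominant in 31 of 92 (33.7%) and 19 of 41 (46.3%). No hormone was dominant in 40 control members (39.2%) and 12 *Taf4*IEC members (26.1%), a difference of −13.1 points (−28.7 to 4.68). Both intervals include 0. In 2 of the 40 control cells hormones tied, with 5 UMIs each in one and 1440 each of *Cck* and *Gcg* in the other.

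The minor classes were small. *Ghrl* was dominant in 7 control and 1 *Taf4*IEC member, *Nts* in 5 and 2, *Pyy* in 4 and 1, and *Gcg* in 4 and 3. *Sct* was dominant in 5 control members and in none of 46 *Taf4*IEC members, which allows a share of up to 6.52% by the limit of 3 counts and 7.71% by the exact interval. *Tac1* was dominant in none of 102 control members, which allows up to 2.94% and 3.55% by the same measures, and in 3 *Taf4*IEC members (6.52 points, 0.261 to 17.9). No member was dominated by *Gip*. With every cell thinned to 2000 UMIs and the same minimum, *Cck* was dominant in 21.6% and 50% and no hormone in 61.8% and 30.4%, so more control than *Taf4*IEC members lost their assignment.

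**Figure D1:**
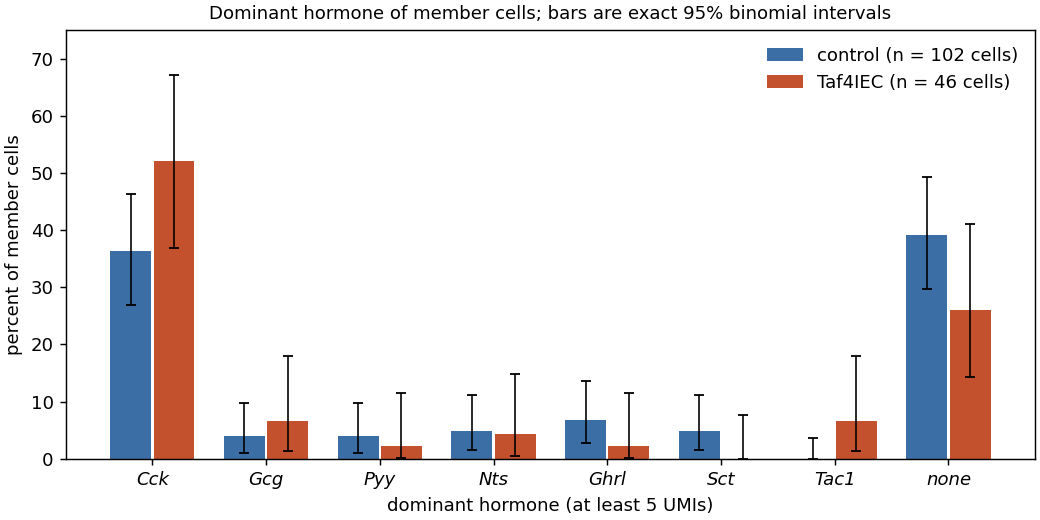
Share of members (%) in each dominant hormone class in the control (102 cells, blue) and *Taf4*IEC (46 cells, red) libraries, with exact 95% binomial intervals. The bars for *Cck* (36.3% and 52.2%) and for no dominant hormone (39.2% and 26.1%) hold most members, and the intervals of the 2 libraries overlap in every class shown.

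Many hormone cells carried more than 1 hormone. Of the 6 marker hormones, exactly 1 reached 5 UMIs in 34 control and 8 *Taf4*IEC members, 2 or more reached 5 UMIs in 25 control and 26 *Taf4*IEC members, 3 or more in 10 and 11, and 5 in a single *Taf4*IEC cell. By profile, 2 or more were present in 25 of 92 and 21 of 41. After thinning, 2 or more were present in 14 control and 20 *Taf4*IEC members. *Pyy* almost always came with *Cck*: 13 of 14 *Pyy* cells in control and 12 of 12 in *Taf4*IEC also had 5 *Cck* UMIs. The same held for *Gcg* (14 of 16 and 15 of 17) and *Tac1* (7 of 7 and 8 of 8). Of the *Nts* cells, 4 of 5 and 3 of 3 carried *Gcg*, and 0 of 5 and 1 of 3 carried *Pyy*. Of the *Ghrl* cells, 5 of 11 in control and 7 of 8 in *Taf4*IEC also had *Cck*, and 3 of 11 and 6 of 8 also had *Gcg*. Over all members, 5 UMIs were reached by *Cck* in 48.0% and 67.4%, by *Gcg* in 15.7% and 37.0% and by *Pyy* in 13.7% and 26.1%. The overlap of *Ghrl* with *Cck* in control, 45.5%, was near the share of all members. None of these overlaps was tested between the libraries.

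**Figure D2:**
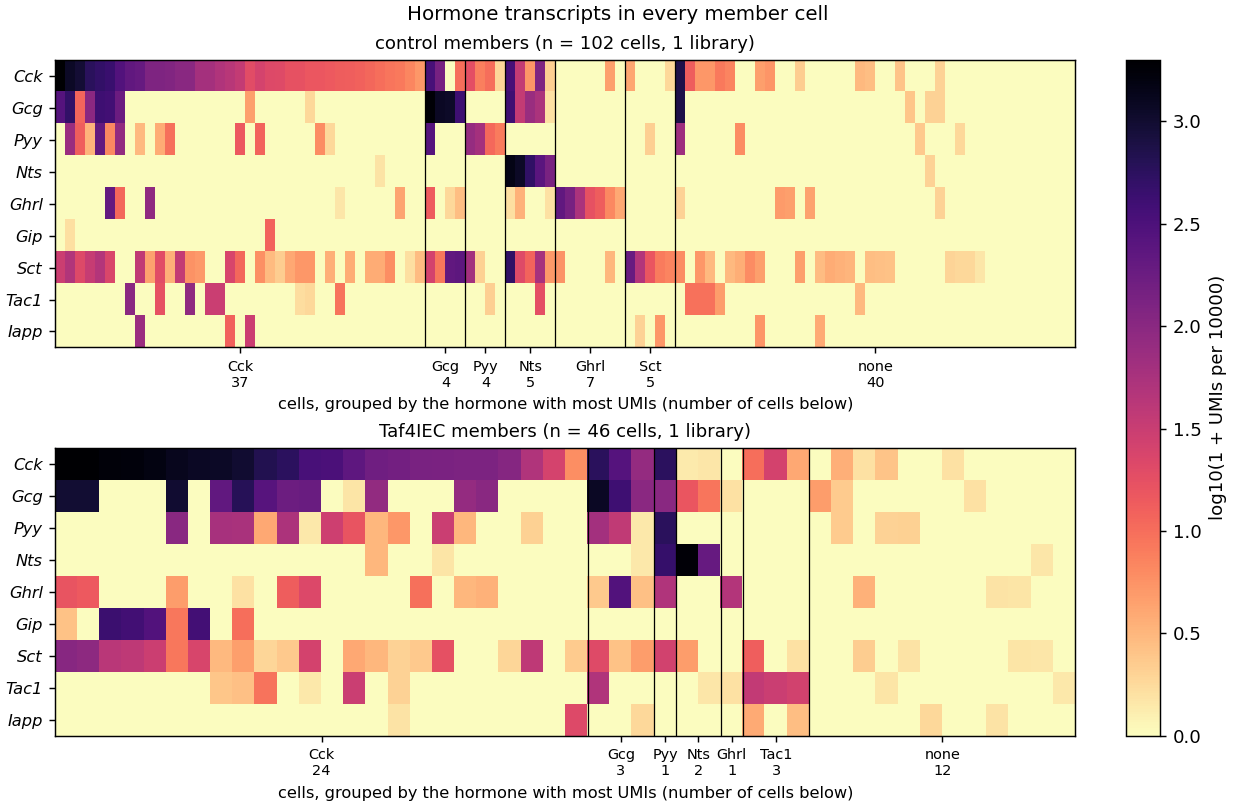
Every member is a column, grouped by its dominant hormone, and every row a hormone gene; colour is log10 of 1 plus UMIs per 10000. *Cck* runs across most classes in both libraries, *Nts* is high in 5 control and 3 *Taf4*IEC cells, and *Gip* reaches 5 UMIs in 1 control and 5 *Taf4*IEC cells, all of which also hold *Cck*.

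*Cck* lies on chromosome 9 (GRCm38.p6, 121489824 to 121495694) and was the most abundant hormone transcript in members. Over all members it reached 106 UMIs per 10000 (104 to 108) in control and 340 (336 to 344) in *Taf4*IEC. Single cells ran from 0 to 2021 per 10000 in control, with a median of 4.27, and from 0 to 2862 in *Taf4*IEC, with a median of 116, and the ranges overlapped throughout. The log2 ratio of the sums was 1.68 (1.65 to 1.71), 1.43 with 1 barcode kept per profile, 1.86 without the highest cell of each library and 2.27 as a ratio of cell means. At least 5 *Cck* UMIs were found in 48.0% of control and 67.4% of *Taf4*IEC members (19.4 points, 0.919 to 35.8). By profile the shares were 46.7% and 63.4% (16.7 points, −2.97 to 34.5).

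*Gcg*, on chromosome 2 (62474530 to 62483653), encodes the precursor of glucagon-like peptides. Its level was 100.2 per 10000 in control and 138 in *Taf4*IEC, a log2 ratio of 0.46 (0.42 to 0.50), and 0.29 by profile. The share of members that held it differed more than its level. At least 5 *Gcg* UMIs were found in 16 of 102 control members (15.7%) and 17 of 46 *Taf4*IEC members (37.0%), a difference of 21.3 points (5.09 to 38.1). With every cell thinned to 2000 UMIs, 16 and 17 members had a *Gcg* UMI, and without thinning 22 and 22 (21.6% and 47.8%), against 6.22% and 16.5% of the cells without granule genes. By profile it was 16 of 92 (17.4%) and 14 of 41 (34.1%), a difference of 16.8 points with an interval of −0.110 to 34.7.

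The promoters of 4 hormone genes are shown as examples. Hormones that are not shown also differed between the libraries, *Pyy* with a log2 ratio of 1.64 against 0.46 for *Gcg*. The windows hold the 250 bases before the RefSeq start site in GRCm38.p6, 5′ to 3′ on the strand of the gene, and capitals mark TATAAA on either strand and the E-box CANNTG, the letters bound by Neurod1-type factors.
*Cck*, chr9:121495695-121495944, minus strand: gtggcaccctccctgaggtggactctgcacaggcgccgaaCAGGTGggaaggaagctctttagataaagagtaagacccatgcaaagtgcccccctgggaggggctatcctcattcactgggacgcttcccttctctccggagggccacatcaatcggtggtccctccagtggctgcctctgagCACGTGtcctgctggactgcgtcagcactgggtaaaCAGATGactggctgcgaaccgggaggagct
*Gcg*, chr2:62483654-62483903, minus strand: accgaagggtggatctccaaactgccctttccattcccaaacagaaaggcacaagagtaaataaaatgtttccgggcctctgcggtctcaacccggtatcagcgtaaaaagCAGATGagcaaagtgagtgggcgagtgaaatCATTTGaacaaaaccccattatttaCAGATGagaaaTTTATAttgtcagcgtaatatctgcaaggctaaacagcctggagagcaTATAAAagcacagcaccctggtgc
*Gip*, chr11:96024295-96024544, plus strand: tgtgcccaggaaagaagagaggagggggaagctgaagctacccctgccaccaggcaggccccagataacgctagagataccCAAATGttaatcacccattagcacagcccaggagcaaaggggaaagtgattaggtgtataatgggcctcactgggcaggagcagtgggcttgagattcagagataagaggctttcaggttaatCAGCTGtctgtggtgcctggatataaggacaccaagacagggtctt
*Sct*, chr7:141279134-141279383, minus strand: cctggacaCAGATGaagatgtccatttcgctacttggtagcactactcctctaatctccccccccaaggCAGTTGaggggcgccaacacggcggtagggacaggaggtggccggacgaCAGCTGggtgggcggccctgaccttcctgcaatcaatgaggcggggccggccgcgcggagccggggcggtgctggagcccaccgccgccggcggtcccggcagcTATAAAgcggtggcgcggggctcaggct

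TATAAA was present in the *Gcg* window, 72 bases before the start on the reverse strand and 24 before it on the forward strand, and in the *Sct* window, 28 bases before the start. Neither the *Cck* nor the *Gip* window held these letters, nor did those of *Pyy*, *Nts*, *Ghrl* and *Tac1*. Of all 32851 promoter windows of 250 bases, 12.4% held TATAAA and 66.2% held CANNTG. The *Cck*, *Gcg* and *Sct* windows held 3 E-boxes each and the *Gip* window 2. A match is a description of the letters and not a bound site, and no binding or chromatin data were analysed here.

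Members with *Gcg* were then compared with members without it, a split at 5 *Gcg* UMIs that was chosen after the values were seen. Cells with *Gcg* held about the same *Cck* in both libraries, 512 per 10000 in 16 control cells and 584 in 17 *Taf4*IEC cells (log2 ratio 0.19, 0.16 to 0.22). The single cells had medians of 341 and 559 per 10000 and overlapped. In the 12 *Taf4*IEC cells whose profile no other barcode shared, the level was 526. Cells without *Gcg* differed: *Cck* was 17.5 per 10000 in 86 control cells and 168 in 29 *Taf4*IEC cells (log2 ratio 3.26, 3.18 to 3.34). Their medians were close, at 1.92 and 4.99 per 10000, and the difference lay in the upper cells, since 5 control and 10 *Taf4*IEC cells reached 100 per 10000. Leaving out barcodes with a shared profile gave 19.0 and 116, and leaving out cells with 5 *Gip* UMIs gave 17.5 and 56.8, a narrower gap in the same direction.

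Secretin showed the other pattern. *Sct*, on chromosome 7 (141278329 to 141279174), was 21.1 per 10000 in control and 7.87 in *Taf4*IEC members, a log2 ratio of −1.42 (−1.55 to −1.30), and −1.69 by profile. In cells with *Gcg* it was 90.0 in control and 10.4 in *Taf4*IEC (log2 ratio −3.12, −3.29 to −2.95), with medians of 26.8 and 3.68. In cells without *Gcg* it was 6.07 and 6.11 (0.01, −0.20 to 0.22), and with cells of 5 *Gip* UMIs also left out 6.17 and 4.08 (−0.59, −0.85 to −0.35). At least 5 *Sct* UMIs were found in 15 of 16 control and 9 of 17 *Taf4*IEC cells with *Gcg*. In control, 4 cells held 842, 386, 253 and 181 *Sct* UMIs, against a highest count of 106 in *Taf4*IEC, and the cell with 842, also the highest in *Nts*, made up 35.1% of the control sum. Without the highest cell of each library the log2 ratio over all members was −1.03. The cells with 842, 386 and 253 were among the 16 with *Gcg*, whose *Sct* sum was 1835 UMIs. The ratio of −3.12 therefore leans on few cells, which its counting interval does not cover. Among all members the share with 5 *Sct* UMIs was 33.3% and 37.0%.

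**Figure D3:**
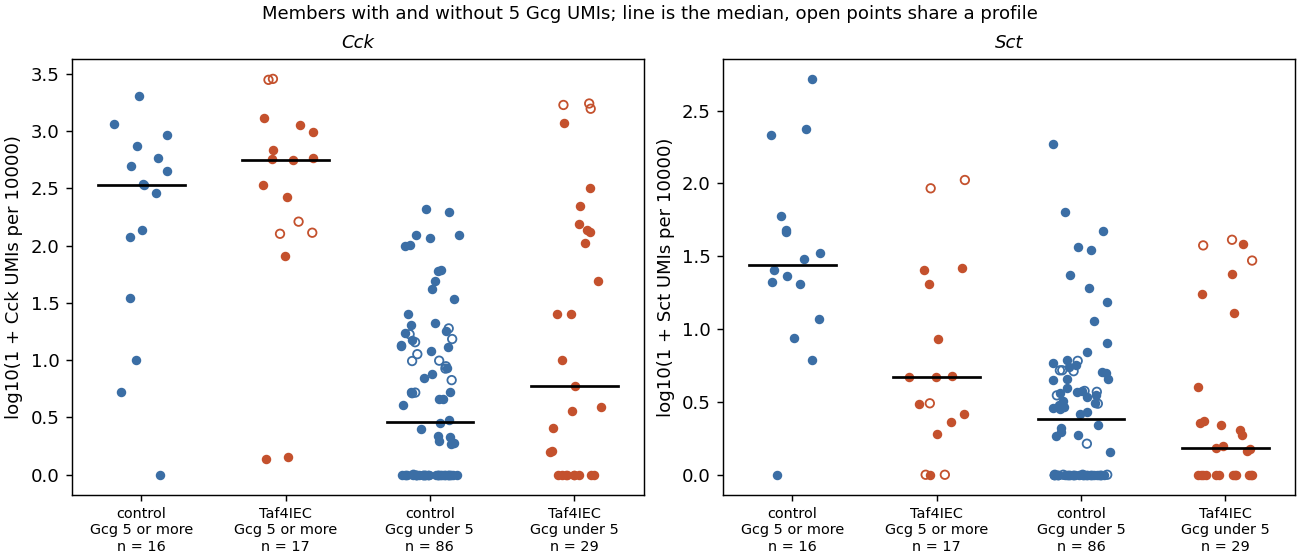
*Cck* (left) and *Sct* (right) in every member as log10 of 1 plus UMIs per 10000, split by library and by whether the cell held 5 *Gcg* UMIs; lines are medians and open points share their profile with another barcode. *Cck* overlaps between libraries in cells with *Gcg* (medians 341 and 559 per 10000), whereas *Sct* in those cells has medians of 26.8 in control and 3.68 in *Taf4*IEC.

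*Gip*, on chromosome 11 (96024532 to 96030831), encodes the incretin of K cells, which in the mouse are most frequent in the upper small intestine. It had 24 UMIs over control members and 1547 over *Taf4*IEC members, a level of 0.211 (0.135 to 0.314) and 19.2 (18.2 to 20.2) per 10000 and a log2 ratio of 6.51 (5.93 to 7.15). Few cells carried it. In control 1 cell held 23 UMIs and another held 1, and in *Taf4*IEC 5 cells held 908, 269, 266, 69 and 32 and the remaining 2 had 2 and 1. The cells with 269, 266 and 69 UMIs shared 1 profile, so the *Taf4*IEC cells with 5 or more UMIs came from 3 profiles, of which the cell with 908 UMIs gave 58.7% of the sum. The control level rests on 1 cell, and with 1 barcode per profile the log2 ratio was 6.05. By profile *Gip* was present in 1 of 92 and 3 of 41 members, a difference of 6.23 points with an interval of −1.30 to 18.9. Each cell with 5 *Gip* UMIs also held *Cck*, 42 UMIs in the control cell and 385 to 3506 in the *Taf4*IEC cells, and *Cck* exceeded *Gip* in all of them.

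*Pyy*, on chromosome 11 (102106676 to 102107832), encodes the L cell peptide that reduces appetite. Its level was 10.6 per 10000 in control and 32.9 in *Taf4*IEC (log2 ratio 1.64, 1.54 to 1.74), but 1 *Taf4*IEC cell with 1673 UMIs made up 63.0% of that library's sum. Without the highest cell of each library the log2 ratio was 0.84. At least 5 *Pyy* UMIs were found in 14 control (13.7%) and 12 *Taf4*IEC members (26.1%), a difference of 12.4 points whose interval, −2.04 to 28.6, includes 0. The cell with 1673 *Pyy* UMIs also held 1610 of *Cck*, 1334 of *Nts*, 285 of *Gcg* and 137 of *Ghrl*, and was the cell with 5 marker hormones.

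Neurotensin cells were rare and carried very high counts. *Nts*, on chromosome 10 (102481756 to 102490418), reached 2356, 482, 245, 237 and 236 UMIs in 5 control cells and 4779, 1334 and 445 in 3 *Taf4*IEC cells, and no other member held more than 1. The summed levels were 31.3 and 81.3 per 10000 (log2 ratio 1.38, 1.32 to 1.44), with 66.2% and 72.8% of each sum from 1 cell, and the ratio of cell means was 0.62. The shares of members with 5 *Nts* UMIs were 4.90% and 6.52%, a difference of 1.62 points (−6.42 to 13.5).

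*Ghrl*, on chromosome 6 (113716119 to 113719911), encodes ghrelin, the hunger hormone. It was 6.66 per 10000 in control and 13.1 in *Taf4*IEC (log2 ratio 0.97, 0.84 to 1.11). In *Taf4*IEC 1 cell with 708 UMIs gave 67.0% of the sum, and without the highest cell of each library the log2 ratio was −0.06. Cells with 5 *Ghrl* UMIs numbered 11 (10.8%) and 8 (17.4%). In control the 2 cells with most *Ghrl*, 234 and 164 UMIs, had 0 UMIs of *Cck* and *Gcg*, whereas in *Taf4*IEC the highest cell held 659 of *Cck* and 993 of *Gcg*. *Mboat4*, which acylates ghrelin, had 16 and 25 UMIs over members.

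*Tac1*, on chromosome 6 (7555061 to 7562978), was 1.92 per 10000 in control and 4.41 in *Taf4*IEC members (log2 ratio 1.20, 0.95 to 1.45, and 0.35 as a ratio of cell means). Cells with 5 UMIs numbered 7 and 8, and all of them held *Cck*. In the *Tph1* cells it was far more abundant, 34.1 and 41.5 per 10000. *Iapp* (amylin) was 1.18 and 0.545 per 10000 (log2 ratio −1.11, −1.64 to −0.61), of which 1 control cell with 104 UMIs gave 77.6% and 1 *Taf4*IEC cell with 32 gave 72.7%. *Gal* had 1 and 8 UMIs, *Ucn3* 10 and 3, and *Cartpt* was at 0 in members of both libraries.

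**Figure D4:**
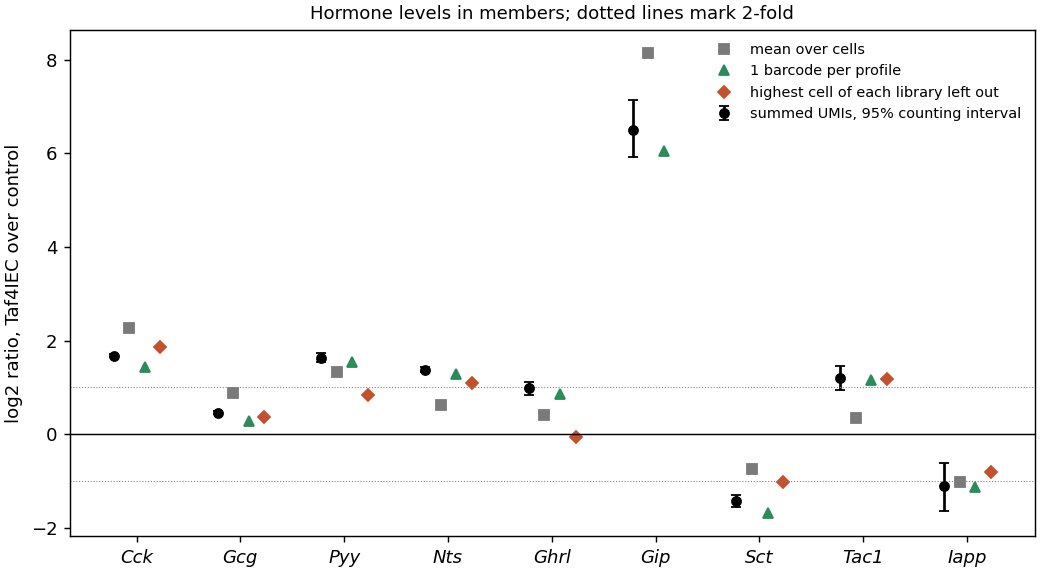
Log2 ratio of *Taf4*IEC over control for each hormone from UMIs summed over members (black circles, with 95% counting intervals), as a ratio of cell means (grey), with 1 barcode per profile (green) and without the highest cell of each library (red, not drawn for *Gip*, where 1 control UMI would remain). *Cck* stays above the 2-fold line in all 4 ways of summing (1.43 to 2.27), whereas *Ghrl* moves from 0.97 to −0.06 without 1 cell per library.

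Across the genome, 4957 genes had at least 50 UMIs over the members of both libraries. Of these, 226 (4.56%) were at least 2-fold higher in *Taf4*IEC and 115 (2.32%) at least 2-fold lower, and the median gene had a log2 ratio of 0.21. With mitochondrial, ribosomal and 2 ribosomal RNA-linked genes left out of the total, that median was −0.02, and 106 genes were higher and 185 lower, so the split of higher against lower genes turned with that choice. Ratios below are read against the median of 0.21. Of 9 hormone genes past the count minimum, 5 were at least 2-fold higher and 2 lower, with a median log2 ratio of 1.20. The 6 others of the list that have no row were not analysed here.

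Of 5 measured genes of prohormone processing, 3 were at least 2-fold higher in *Taf4*IEC, against 4.56% of all genes. All 5 lay above 0, with a median log2 ratio of 1.02. The 5 include *Cpe*, a gene of the rule. *Pcsk1n*, the inhibitor of the convertase Pcsk1, went from 0.703 to 2.23 per 10000 (log2 ratio 1.67, 1.28 to 2.07). *Pam*, the enzyme that amidates peptides such as Cck and Pyy, went from 1.10 to 2.23 (1.02, 0.69 to 1.36), and the carboxypeptidase *Cpd* from 0.501 to 1.05 (1.07, 0.57 to 1.58). *Pcsk1* itself, the convertase that cuts these prohormones, was 2.79 and 2.91 (0.06, −0.19 to 0.31). The chaperone of the convertase Pcsk2, *Scg5*, had 27 UMIs in 7 control members and none in *Taf4*IEC. In cells with *Gcg*, *Pam* was 2.94 and 2.97 per 10000 (log2 ratio 0.01, −0.46 to 0.50), whereas *Pcsk1n* was 0.147 and 2.76, from 3 and 92 UMIs (4.23, 2.64 to 6.53).

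Granule cargo and membrane genes had a median log2 ratio of 0.34 over 12 genes. Of these, 3 were at least 2-fold higher and none lower, against 4.56% and 2.32% of all genes. The 12 include *Chga* and *Chgb*, genes of the rule. *Scg2*, the secretogranin of the peptide granules, went from 2.50 to 7.43 per 10000 (1.57, 1.36 to 1.78) and was found in 26 of 102 control and 30 of 46 *Taf4*IEC members, against 0.174% and 1.42% of cells without granule genes. Genes of the granule proteins *Resp18* (1.71, 1.12 to 2.34) and *Syt13* (1.24, 0.75 to 1.75) were also past 2-fold, with 34 and 56 control UMIs. In cells with *Gcg*, *Scg2* was 11.9 and 12.0, and in cells without *Gcg* 0.460 and 4.18. *Chga* (13.7 and 18.5), *Chgb* (49.8 and 50.4) and *Cpe* (9.44 and 13.0) belong to the rule. The calcium sensor *Scgn* was 3.25 and 3.77.

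Genes of exocytosis and excitability differed less. The counts in this paragraph stand beside 4.56% of all genes at least 2-fold higher and 2.32% lower. Of 11 exocytosis genes, *Rab3c* alone was past 2-fold (0.492 and 1.15 per 10000, log2 ratio 1.23, 0.73 to 1.73), and the list had a median of 0.41, with the SNARE gene *Snap25* at 0.439 and 0.583. None of 5 excitability genes was past 2-fold (median 0.34). The most abundant of them was the calcium channel gene *Cacna1a*, at 2.12 and 2.69 per 10000 (0.34, 0.07 to 0.62). Of 4 nutrient and signal sensor genes with enough UMIs, *Ffar4*, a long-chain fatty acid receptor (22 and 34 UMIs, 1.12, 0.31 to 1.97), and the galanin receptor *Galr1* (20 and 47 UMIs, 1.73, 0.95 to 2.56) were past 2-fold. The main fatty acid receptor of these cells, *Ffar1*, was 1.05 and 1.25 per 10000 (0.26, −0.14 to 0.65), and the glucose transporter *Slc5a1* was 1.91 and 2.42.

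Transcription factors of the endocrine lineage were measured for 23 genes, with a median log2 ratio of 0.53. They include *Neurod1*, a gene of the rule. Of the 23, 20 lay above 0, as did 3352 of all 4957 genes. *Neurod2* alone passed 2-fold (1.04, 0.41 to 1.69, with 37 and 54 UMIs), beside 4.56% of all genes at least 2-fold higher. *Etv1*, found in 43 of 102 and 36 of 46 members and in 0.349% and 0.158% of cells without granule genes, was 2.31 per 10000 in control and 4.28 in *Taf4*IEC (0.89, 0.65 to 1.12, and 0.36 as a ratio of cell means). The pan-endocrine repressor gene *Insm1* was 2.82 and 5.01 (0.83, 0.61 to 1.04), and *Pax6*, an activator of hormone genes, 0.809 and 1.57 (0.96, 0.56 to 1.36). *Isl1* was 1.76 and 1.57 (−0.16, −0.49 to 0.17), and *Sox4*, a progenitor gene, 3.53 and 3.12 (−0.18, −0.41 to 0.05). *Pax4* fell short of the count minimum with 37 and 9 UMIs.

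The factors varied with the hormone a cell carried, in both libraries. *Etv1* was 8.53 and 7.17 per 10000 in cells with *Gcg* (16 of 16 and 16 of 17 cells) and 0.953 and 2.24 in cells without. *Pax6* was 2.45 and 2.31 and *Ffar1* 4.32 and 2.31 in cells with *Gcg*, whereas members with no dominant hormone had *Pax6* at 0.39 and 0.51 and *Ffar1* at 0.21 and 0. *Isl1* was highest in cells with *Ghrl*, at 4.52 and 2.79, and *Nkx2-2* was 2.46 and 1.99 there. *Onecut3* was 2.10 and 1.40 in cells with *Nts* (2 of 5 and 2 of 3 cells). *Insm1* in members without a dominant hormone was 3.47 and 6.81, and *Sox4* 4.59 and 5.44. These cell groups overlap, since a cell with several hormones counts in each.

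Among p53 target genes, 11 were measured, 1 at least 2-fold higher (*Zmat3*, 24 and 39 UMIs, log2 ratio 1.20, 0.43 to 1.99) and none lower, against 4.56% and 2.32% of all genes. With summed UMIs the median log2 ratio of the p53 targets was 0.26 in members, against 0.21 for all genes. Other cells, here and below, are those of at least 2000 UMIs under the granule threshold (1975 and 805 cells). They leave out the *Tph1* and *Neurog3* cells. In them the p53 target median was 1.04, where all genes had a median of 0.10. The small gap in members depended on the setting. It was wider as a mean over cells (0.50 against 0.12) and after thinning to 2000 UMIs (0.48 against 0.12). With granule genes at 5 per 10000 it was also wider (0.58 against 0.22). The remaining settings gave smaller gaps than these, such as 0.28 against 0.18 with 1 barcode per profile. *Cdkn1a*, the cell cycle inhibitor p21, was 8.04 per 10000 in control members and 12.4 in *Taf4*IEC members (0.62, 0.49 to 0.76), against 1.66 and 5.64 in the other cells (1.77). *Bax* was 3.05 and 3.33 in members, a log2 ratio of 0.13 against 1.04 in other cells, and *Ccng1* had 0.26 against 1.94. Whether the response differs between members and other cells could not be tested with 1 library per condition.

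Chromatin and TFIID genes were near the general median. Of 8 genes of Polycomb repressive complex 2, none was past 2-fold (median 0.01), with the methyltransferase *Ezh2* lowest at 0.650 and 0.347 per 10000 (−0.91, −1.59 to −0.26). Of 4 measured TFIID genes, none was past 2-fold (median 0.32), with *Taf10* at 2.14 and 2.64. Of all genes, 4.56% were at least 2-fold higher and 2.32% lower.

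The genes with the largest fold in members, by the lower of the folds over other cells of the same library, were *Nts*, *Scg2*, *Cck*, *Etv1*, *Gcg*, *Pyy*, *Gip*, *Ffar1*, *Chgb*, *Ghrl*, *Chga*, *Map1b*, *Scgn*, *Tac1* and *Hmgn3*. *Chga* and *Chgb* are genes of the rule, and all these folds describe cells that were chosen by it. The other cells leave out the *Tph1* and *Neurog3* cells, so a large fold does not set members apart from those. *Scg2* was 1358-fold and 1103-fold and *Etv1* 974-fold and 1588-fold above the other cells in control and *Taf4*IEC. *Map1b*, a microtubule protein of neurons, and *Hmgn3*, a nucleosome-binding protein, were at 0.993 and 1.17, and 1.47 and 1.00 per 10000. Within members, the *Cck* class had its largest fold over other members, after *Cck* itself, in *Fabp5*, a fatty acid-binding protein (8.30 against 2.64 per 10000 in other control members, 14.9 against 3.37 in *Taf4*IEC), followed by *Iapp*, *B4galt4* and *Tkfc*. In *Cck*-class cells with under 5 *Gcg* UMIs, *Fabp5* was 6.28 and 16.4 per 10000, and 5.34 and 3.91 once cells with 5 *Gip* UMIs were left out. *Iapp* had a UMI in 3 of 37 and 2 of 24 *Cck*-class cells, and single cells with 104 of 121 and 32 of 33 UMIs set its place. The largest folds of members without a dominant hormone were in *Map3k15*, *Akr1c19*, *Arid5b*, *Bambi* and *Fbxo2*, the first at 0.704 against 0.225 and 1.32 against 0.361.

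The 10 genes with the lowest ratio among those with 200 UMIs were *Bex1*, *Gm10260*, *Olfm4*, *Reg4*, *Hmgb2*, *Fgfbp1*, *Jun*, *Stmn1*, *H2afv* and *Nupr1*. *Bex1* had 465 UMIs in 78 control members and none in *Taf4*IEC members, at least 109.9-fold lower by a floor of 3 counts over the library's members, and *Gm10260* had 569 and 1 (log2 ratio −8.66, −13.96 to −6.17). The other cells had log2 ratios of −7.37 and −10.69 for these genes. *Olfm4*, a stem cell marker, had 254 UMIs in 35 cells and 10 in 7 cells (−4.17, −5.25 to −3.27), and by profile −4.07. *Reg4*, a lectin of secretory cells, was 9.98 and 1.71 per 10000 in members (−2.54, −2.81 to −2.29), whereas in the other cells its ratio was 1.09. The highest member of each library held 27.6% and 50.7% of its UMIs. *Reg4* was also lower in *Taf4*IEC in the *Tph1* cells (64.9 and 24.4 per 10000) and the *Neurog3* cells (6.31 and 0.352). As ratios of cell means the values were smaller, −1.50 for *Olfm4*, −1.01 for *Reg4* and −0.41 for *Fgfbp1*, and after thinning −1.76, −1.20 and −0.21. *Jun*, an immediate early gene, was 3.12 and 0.756 (−2.04, and −2.20 as a ratio of cell means), against −1.13 in the other cells.

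Among the 10 genes with the highest ratio were *Gip*, *Hist1h2bc*, *Itln1*, *Agr2*, *Cd177*, *Tkfc*, *Pklr*, *Lect2* and *Abcb1a*. The histone gene *Hist1h2bc* had 55 UMIs in control and 421 in 42 of 46 *Taf4*IEC members (log2 ratio 3.43, 3.02 to 3.87), and 2.43 in the other cells. *Pklr*, a pyruvate kinase, had 98 and 266 UMIs (1.94). *Agr2*, a secretory disulfide isomerase of goblet cells, had a log2 ratio of 2.40, 3.85 by profile, with 43.4% of its *Taf4*IEC UMIs from 1 cell, and *Itln1* one of 2.63 with 67.1% from 1 cell. The other cells had the same direction for *Itln1* (log2 ratio 2.87), *Agr2* (1.41), *Tkfc* (1.40), *Abcb1a* (1.31) and *Pklr* (1.29). The same held for *Gip* (3.58), which is rare in the other cells. *Itln1* and *Agr2* were lower in members, at 0.26 and 0.38 of their other-cell level in control and 0.22 and 0.76 in *Taf4*IEC. Members and other cells had opposite directions for *Cd177* (2.06 and −2.69) and *Lect2* (1.76 and −1.78), which are rare in the other cells. For *Cd177*, 1 *Taf4*IEC member gave 58.1% of the UMIs and the log2 ratio without the highest cells was 1.16. *Alpl*, which is below 200 UMIs and was named after its values were seen, had 0 and 56.

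**Figure D5:**
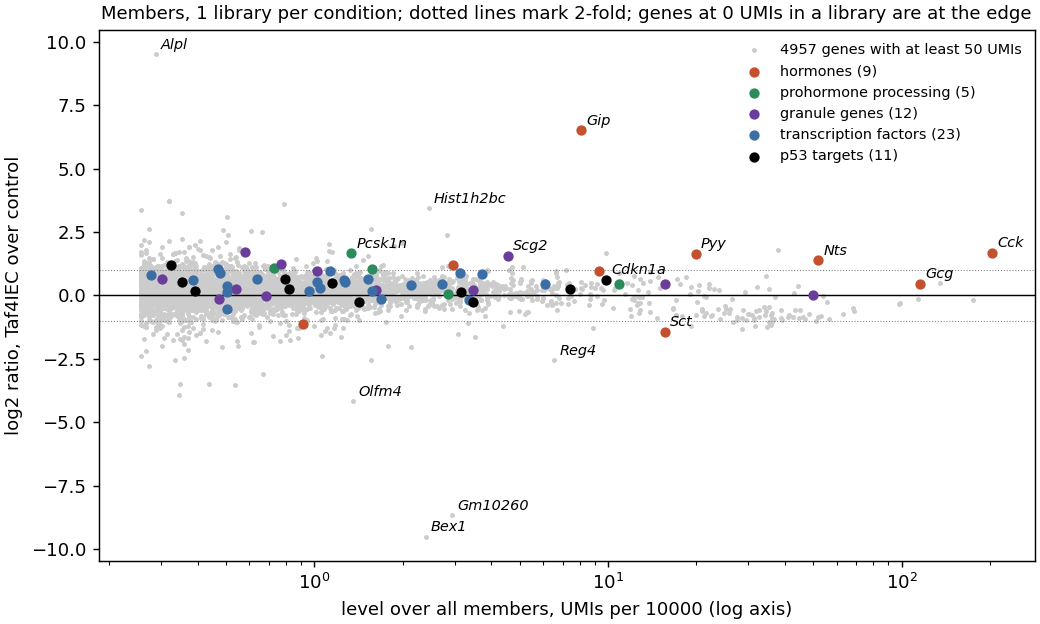
Log2 ratio of *Taf4*IEC over control in members against level in UMIs per 10000 over all members (log axis) for 4957 genes with at least 50 UMIs; coloured points are the gene lists, and *Bex1* and *Alpl*, at 0 UMIs in 1 library, are drawn at the edges. *Gip* (6.51) lies above and *Olfm4* (−4.17) below the cloud, and most transcription factors lie between 0 and the upper 2-fold line.

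Against the *Tph1* cells, members had less *Chga* (97.7 and 113 per 10000 in *Tph1* cells) and *Chgb* (306 and 280), both genes of the rule. *Etv1* was 0.0548 and 0.191 in *Tph1* cells, and *Isl1* and *Ffar1* had 0 UMIs there in both libraries. *Cck* was also present in *Tph1* cells, at 52.0 and 41.0 per 10000. In *Neurog3* cells *Cck* was 28.4 and 119 and *Gcg* 0.0501 and 39.7, whereas *Pyy* was 25.1 and 0.546. *Sox4* was 10.1 and 7.22 there, above its level in members. These are sums over 22 and 27 *Tph1* cells and 20 and 43 *Neurog3* cells, and the differences were not tested.

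Markers of other cell types were measured in the same cells, and their part in the results above was not tested. Their counts past 2-fold stand beside 4.56% of all genes higher and 2.32% lower. Stem cell markers summed to 6.42 per 10000 in control and 2.79 in *Taf4*IEC members, with 3 of 7 measured genes at least 2-fold lower (*Olfm4*, *Slc12a2* and *Lgr5*), against 16.1 and 10.2 in the other cells. Cell ranges were 0 to 25.0 and 0 to 34.4, with medians of 3.27 and 2.59. The median log2 ratio of the 7 stem genes was −0.60 in members and −0.67 in the other cells. Cycling genes summed to 2.37 and 0.607, with ranges of 0 to 13.5 and 0 to 4.20. Enterocyte markers summed to 32.0 and 86.9 per 10000 and ran from 3.00 to 135 and from 0 to 235 per cell. Only 1 of 7 measured enterocyte genes was at least 2-fold higher and 4 lay above 0, with a median log2 ratio of 0.05, so the sum and the median differ. The brush border enzyme *Alpi* had 0 UMIs in members of both libraries.

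Paneth markers summed to 8.71 and 10.5 per 10000 (0 to 77.5 and 0.584 to 92.2 per cell), with 3 of the 10 genes at 0 in *Taf4*IEC. Of 5 measured Paneth genes 1 was at least 2-fold higher and 2 lower, with a median log2 ratio of −0.18, against the direction of the sum. For this and the goblet list, the shares of all genes were 4.56% higher and 2.32% lower. Goblet markers summed to 21.6 and 34.3 (0 to 528 and 0.453 to 198.5 per cell), with 2 of 4 measured genes at least 2-fold higher and *Muc2* at 3 and 6 UMIs. Both lists were higher in the other cells, at 21.1 and 80.4 and at 44.5 and 150.2. Tuft cell markers summed to 0.0352 and 0.0372, with 8 and 7 of 10 genes at 0, and non-epithelial markers to 0.0439 and 0.0124. Enterochromaffin markers other than the rule's *Tph1* remained in members, led by *Gch1* (3.60 and 4.92) and *Ddc* (2.52 and 2.88). The whole list, *Tph1* included, summed to 10.9 and 14.3. Precursor genes summed to 7.87 and 8.74. Transcripts that mark damaged cells, 12 genes with mitochondrial genes and *Malat1* among them, summed to 798 and 783 per 10000.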

How the data were processed

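Libraries of live-sorted cells were made by the authors with 10X Genomics 3′ chemistry, one for the control and one for the *Taf4*IEC culture. Per the study's methods and the submitters' processing notes, reads were demultiplexed with bcl2fastq 2.17.1.14, counted against mm10 with Cell Ranger 3.1 and handled in Seurat 3.1.4, with unexpressed genes removed and cells filtered on gene number and mitochondrial share. The deposited values are raw UMI counts per gene and cell.

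Members were selected by the rule given above, and their UMIs were summed per library and divided by the summed total, per 10000 UMIs. Genes with at least 50 UMIs over all members were compared, and past 2-fold counts as called. Intervals are 95% and cover counting error only. For levels at 0, a floor of 3 counts was used. Scrublet, run in scanpy 1.11.5, called 10 control cells (0.390%), 2 of them members, and no *Taf4*IEC cell. At that rate it has not worked, so no cell was removed. To count profiles, members were paired by their chi-square over genes with 20 or more pooled UMIs (at least 40 genes), and pairs up to 1.7 were linked, a limit chosen after the data were seen. The ratio and interval code was tested on simulated data. Coordinates and promoter sequences come from RefSeq, GRCm38.p6.

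Named genes were *Taf4* and *Taf4b*, every listed hormone, the listed genes of each role with the largest ratio or level, the 10 highest and 10 lowest ratios at 200 or more UMIs, the 15 largest folds over other cells, and the 5 largest folds of each dominant class with 5 members in both libraries. The members and lists were chosen with earlier results of these data known. Python 3.11.15, numpy 2.4.6, scipy 1.17.1, pandas 2.3.3 and matplotlib 3.10.9 were used. Some genes that meet these rules are not reported here.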

Additional observations from a re-analysis of the deposited data

How the results depend on the processing

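No paired analysis was possible because each condition had 1 library and the results come from no test, and for the same reason no library could be left out. The count of genes at least 2-fold higher and lower was 106 and 185 with mitochondrial, ribosomal and ribosomal RNA-linked genes left out, 28 and 26 with each cell thinned to 2000 UMIs, 33 and 32 at 200 UMIs over members, and 982 and 595 at 10 UMIs; the last 3 changed how many genes could be compared. The median log2 ratio of hormones, 1.20, was 0.88 with granule genes at 20 per 10000, 0.62 as a mean over cells and 0.71 after thinning. The difference in members without a dominant hormone, −13.1 points, was −31.3 after thinning. The cause of the shifts in the hormone median and in this difference was not tested. The member share of all cells (8 alternatives, −1.56 to −0.759 points), the *Cck*-dominated share (4 alternatives, 13.7 to 28.4 points) and the p53 median (11 alternatives, 0.03 to 0.58) kept their direction. How far the p53 median stood above that of all genes varied. The gap was widest as a mean over cells, after thinning and with granule genes at 5 per 10000. Among single hormones, *Cck* (1.33 to 2.30), *Gcg* (0.20 to 0.88), *Pyy* (0.84 to 1.79), *Nts* (0.56 to 1.71), *Gip* (4.41 to 9.83), *Tac1* (0.35 to 3.79), *Sct* (−1.81 to −0.74) and *Iapp* (−3.02 to −0.78) kept their sign under 13 alternatives, and *Ghrl* went from −0.06 to 1.46. The values of 4.41 for *Gip* and 3.79 for *Tac1* came with 0 UMIs of *Tph1* and *Neurog3* required. Keeping 1 barcode per profile and leaving out the highest cells were chosen after seeing the data. Few cells per hormone, 3 to 5 for *Nts* and 1 to 5 for *Gip*, limit every ratio, and medians of cells rest on unequal depth.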
